A study of Mus musculus with 12 samples.

Results

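Cell cycle and mitosis genes are a set of 60 genes chosen by name for their part in cell division, with earlier results of these data known. Of these, 56 were measured, each by 1 probe set on a mouse expression array. The other 4 listed genes, *Ccnd1*, *Mcm7*, *Ccnb1* and *Foxm1*, had no probe set under their symbol and were not analysed here. Of the 56 genes, 19 act at the start of S phase or in DNA replication, and 37 act in G2 and mitosis. They are 56 of 19505 genes with a symbol on the array, and are read against all 22206 non-control probe sets.

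The samples were subcutaneous inguinal fat (SAT) and liver (LIV) of 6 male C57BL/6N mice, so that the fat and the liver array with the same animal number came from the same mouse. All mice were 8 weeks old at the start, ate a high-fat diet (HFD, 60% of the energy from fat) for 10 weeks and were gavaged every 12 hours for 12 weeks. The 3 HFD mice (8, 11 and 14) received the vehicle, and the 3 HFD + LY mice (16, 18 and 20) received LY2584702 (LY) at 25 mg/kg, a compound that inhibits the kinase S6K1. All groups therefore ate the high-fat diet, lean mice were not analysed here, and no group carries a genetic deletion of S6K1. Values are log2 array signals, a difference is HFD + LY minus HFD on that log2 scale, and p is unadjusted from limma unless it is called adjusted, which means corrected by Benjamini-Hochberg over all 22206 probe sets.

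A dividing cell copies its DNA in S phase and separates the copies in mitosis. The E cyclins and the E2F factors open S phase, the MCM helicase with CDC45 and GINS unwinds DNA at the origins, and ribonucleotide reductase and thymidylate synthase supply its building blocks. CDK1 with its cyclins then drives entry into mitosis, kinetochores tie the chromosomes to the spindle, and the anaphase-promoting complex releases them once all are attached. In adult fat and liver few cells divide. In fat of obese animals, adipocyte progenitors, endothelial cells and macrophages are among the cells known to do so, while adipocytes and most hepatocytes are at rest.

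The G2 and mitosis genes also share a kind of promoter. Many are known to be repressed in resting cells by the DREAM complex through a cell cycle homology region (CHR, the letters TTTGAA or TTTAAA), often with upstream CCAAT boxes bound by the factor NF-Y, whereas many S phase genes carry E2F sites. The promoters of 5 members are printed to show these layouts: *Ccnb2*, *Spc25* and *Cdk1* of the mitotic genes, *Ccne1* as an S phase gene with an SAT difference, and *Mcm6* as an S phase gene without. Each runs 5′ to 3′ along the gene, from 140 bases before the annotated start to 30 bases from it on (RefSeq, GRCm38.p6), and capitals mark CHR words, CCAAT boxes and E2F words on either strand.
Ccnb2: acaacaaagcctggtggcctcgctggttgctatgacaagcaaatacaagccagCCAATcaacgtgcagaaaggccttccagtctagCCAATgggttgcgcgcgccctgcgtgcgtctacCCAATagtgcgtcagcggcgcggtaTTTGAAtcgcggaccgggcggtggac
Spc25: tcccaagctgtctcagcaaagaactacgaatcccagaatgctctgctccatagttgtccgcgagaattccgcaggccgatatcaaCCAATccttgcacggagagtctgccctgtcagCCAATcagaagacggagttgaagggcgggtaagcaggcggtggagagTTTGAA
Cdk1: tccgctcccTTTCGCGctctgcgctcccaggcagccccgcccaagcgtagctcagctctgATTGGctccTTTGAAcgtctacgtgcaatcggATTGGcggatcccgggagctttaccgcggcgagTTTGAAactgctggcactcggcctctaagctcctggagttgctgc
Ccne1: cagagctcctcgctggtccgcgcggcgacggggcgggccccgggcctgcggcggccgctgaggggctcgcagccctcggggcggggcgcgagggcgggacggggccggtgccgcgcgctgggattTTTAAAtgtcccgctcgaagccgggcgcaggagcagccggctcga
Mcm6: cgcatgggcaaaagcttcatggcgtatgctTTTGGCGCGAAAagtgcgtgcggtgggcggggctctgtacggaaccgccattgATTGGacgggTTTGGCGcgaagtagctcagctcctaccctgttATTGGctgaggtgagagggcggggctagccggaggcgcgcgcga
They lie on the minus strand at chr9:70421525-70421694 (*Ccnb2*), chr2:69206184-69206353 (*Spc25*), chr10:69352883-69353052 (*Cdk1*), chr7:38107461-38107630 (*Ccne1*) and chr1:128359676-128359845 (*Mcm6*). The mitotic promoters shared the order of CCAAT boxes upstream of a CHR word near the start. With the start base as 0, *Ccnb2* held CCAAT at -87, -54 and -21 ahead of a TTTGAA at 4. *Spc25* held CCAAT at -55 and -23 ahead of a TTTGAA at 24. *Cdk1* held the CCAAT box in its reverse form, ATTGG, at -80 and -48, with TTTGAA at -71 and -15 and an E2F word at -131. The S phase pair looked different. *Ccne1* held a TTTAAA at -15 and none of the other words in this stretch, and *Mcm6* held 3 E2F words, at -110, -105 and -47, of which the upstream pair overlap, with ATTGG at -57 and -14.

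Over the full window of 250 bases before to 50 after the start, 45 of the 56 members had a promoter in the table, 15 of S phase and 30 of G2 and mitosis. A CHR word lay in 24 of the 30 G2 and mitosis genes (80.0%), in 6 of the 15 S phase genes (40.0%) and in 30.6% of all 27025 genes. The mitotic genes thus held it more often than the S phase genes, whose share was nearer to that of all genes. TTTGAA alone, searched on both strands, lay in 22 of 30 (73.3%), 2 of 15 (13.3%) and 20.2%. A CHR word together with CCAAT lay in 20 of 30 (66.7%), 4 of 15 (26.7%) and 12.2%. The E2F words searched were TTTCGCG with its variant TTTGGCG, and likewise TTTCCCG with its variant TTTGCCG, on both strands. They ran the other way and lay in 4 of 30 (13.3%), 6 of 15 (40.0%) and 7.65% of all genes. CCAAT alone was frequent in both phases, in 22 of 30 (73.3%) and 9 of 15 (60%) against 41.1% of all genes, and TATAAA was in 1 of 30 (3.33%), 1 of 15 (6.67%) and 15.7%. These matches describe letters in a window and do not show that a factor binds there.

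In SAT the mitotic genes were lower in HFD + LY than in HFD mice, and the replication genes differed less. Of the 56 members, 27 were lower at p under 0.05 and 0 were higher, against 3.19% of all probe sets lower and 1.86% higher. The difference was negative in 52 members, with a median of -0.36 beside -0.005 over all probe sets. The 27 were 25 of the 37 G2 and mitosis genes (median -0.48) and 2 of the 19 S phase genes (median -0.083). Of the 19 S phase differences 16 were still negative (84.2%), against 51.5% of all probe sets. Every HFD + LY array lay below every HFD array in 24 members, against 5.48% of all probe sets, and above in 0, against 4.01%. The Benjamini-Hochberg adjusted p of limma reached the threshold in 0 members (smallest 0.607, *Ccnb2*), as in 0 of all probe sets, so each single gene is given by its values and not as an established change. That count depended on the arrays used, although 14 of 16 alternatives also gave 0 members. At an adjusted p under 0.05, 16 members were lower with array weights (1.13% of all probe sets) and 22 without mice 11 and 20 (1.83%), with 0 higher in both. The weights of HFD + LY mice 16, 18 and 20 were 4.46, 0.91 and 0.319, so the weighted fit leaned on mouse 16 among the treated. With 3 mice against 3, an exact 2-sided permutation test of 1 gene cannot go below 0.1.

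The 27 depended on which mouse was left out. The count was 14 without HFD mouse 8, 17 without HFD mouse 14, 17 without HFD + LY mouse 16 and 36 without HFD mouse 11, while the share of all probe sets lower was 1.6%, 1.98%, 1.5% and 6.49% in those fits. It was 13 by the methods' t-test (2.86% of all probe sets), and 11 of the 22 members left when dim probe sets were dropped (3.75%). Across the alternatives, which gave 15 or 16 further fits a gene, 12 of the 27 stayed under 0.05 in each: *Ccne1*, *Ccne2*, *Ccnb2*, *Aurka*, *Pbk*, *Ube2c*, *Cenpa*, *Cenpe*, *Ndc80*, *Nuf2*, *Nusap1* and *Stmn1*.

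**Figure D1:**
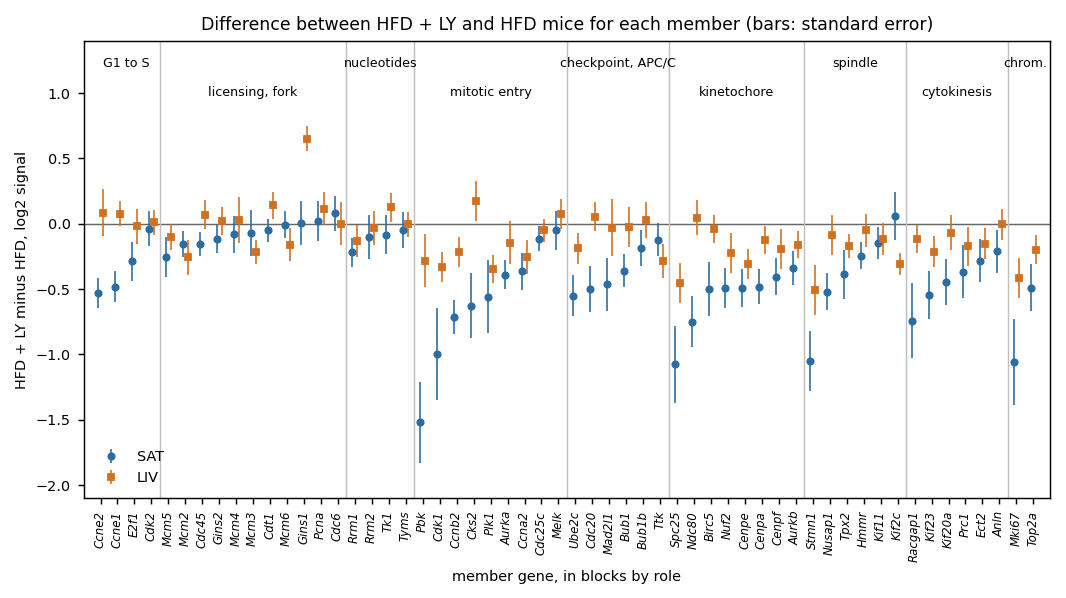
Difference between HFD + LY and HFD mice (log2 signal, vertical axis) for each of the 56 members (horizontal axis, in blocks by role), as circles for SAT and squares for LIV with the standard error. The SAT points of the mitotic blocks lie mostly below 0, down to -1.52 for *Pbk*, while those of the licensing and fork block lie between -0.25 and 0.08.

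Among the genes of G1 to S control, both E cyclins were lower in SAT. *Ccne2* measured 9.35, 9.07 and 9.29 in HFD mice 8, 11 and 14 and 8.57, 8.76 and 8.80 in HFD + LY mice 16, 18 and 20, a difference of -0.53 ± 0.12 (SE, adjusted p = 0.876). *Ccne1* measured 9.76, 9.46 and 9.69 in HFD mice 8, 11 and 14 and 9.05, 9.12 and 9.30 in HFD + LY mice 16, 18 and 20, a difference of -0.48 ± 0.12 (SE, adjusted p = 0.908). In both genes all HFD mice lay above all HFD + LY mice. *E2f1*, the transcription factor that activates many S phase genes, measured 8.45, 8.02 and 8.51 in HFD mice 8, 11 and 14 and 7.94, 7.97 and 8.21 in HFD + LY mice 16, 18 and 20, with mouse 11 inside the treated range and a difference of -0.29 ± 0.15 (SE, adjusted p = 0.993). *Cdk2*, the kinase partner of the E cyclins, differed by -0.04 ± 0.13 (SE, adjusted p = 0.997).

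Of the 11 genes of origin licensing and the replication fork, 0 passed p under 0.05 in either direction (smallest p 0.134), and their differences ran from -0.25 to 0.08. *Mcm5*, a subunit of the replicative helicase, measured 8.53, 7.93 and 8.32 in HFD mice 8, 11 and 14 and 8.02, 7.97 and 8.02 in HFD + LY mice 16, 18 and 20. *Cdc45*, which joins that helicase when origins fire, measured 8.53, 8.56 and 8.41 in HFD mice 8, 11 and 14 and 8.33, 8.29 and 8.41 in HFD + LY mice 16, 18 and 20. The groups overlapped in both. *Mcm2*, another helicase subunit, measured 9.19, 9.07 and 9.14 in HFD mice 8, 11 and 14 and 8.84, 9.04 and 9.05 in HFD + LY mice 16, 18 and 20, and its groups did not overlap although the difference was only -0.16 ± 0.10 (SE, adjusted p = 0.994). *Cdc6*, which loads the helicase, had the most positive difference of the members, 0.08 ± 0.13 (SE, adjusted p = 0.995), at 7.72, 7.30 and 7.34 in HFD mice 8, 11 and 14 and 7.50, 7.64 and 7.46 in HFD + LY mice 16, 18 and 20. The other 3 measured MCM genes, *Mcm3*, *Mcm4* and *Mcm6*, differed by -0.07, -0.08 and -0.01, and *Pcna*, the sliding clamp of DNA polymerase, by 0.02.

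The 4 genes of nucleotide supply differed by -0.22 to -0.05, and 0 passed p under 0.05. *Rrm1*, the large subunit of ribonucleotide reductase, measured 8.59, 8.27 and 8.31 in HFD mice 8, 11 and 14 and 8.13, 8.21 and 8.19 in HFD + LY mice 16, 18 and 20, all HFD mice above all HFD + LY mice by a narrow margin, a difference of -0.22 ± 0.11 (SE, adjusted p = 0.989). *Rrm2*, the small subunit made in S phase, measured 7.74, 7.17 and 7.51 in HFD mice 8, 11 and 14 and 7.15, 7.58 and 7.39 in HFD + LY mice 16, 18 and 20, and *Tk1*, thymidine kinase, 7.95, 7.82 and 7.99 in HFD mice 8, 11 and 14 and 7.62, 7.73 and 8.16 in HFD + LY mice 16, 18 and 20. Both overlapped between the groups.

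Of the 9 cyclins and kinases of mitotic entry, 6 were lower at p under 0.05. *Ccnb2*, a B-type cyclin and partner of CDK1 whose CCAAT and CHR layout is printed above, had the smallest p of the members, at 9.11, 8.78 and 8.91 in HFD mice 8, 11 and 14 and 8.05, 8.19 and 8.41 in HFD + LY mice 16, 18 and 20, a difference of -0.71 ± 0.13 (SE, adjusted p = 0.607). *Pbk*, a kinase active in mitosis, had the most negative difference, at 9.12, 7.82 and 8.24 in HFD mice 8, 11 and 14 and 6.67, 6.73 and 7.22 in HFD + LY mice 16, 18 and 20, a difference of -1.52 ± 0.31 (SE, adjusted p = 0.764) or 0.349 times the HFD level. In both genes the groups were apart, and in *Pbk* the treated mice 16 and 18 were the lowest. *Aurka*, the centrosomal Aurora kinase, measured 8.47, 8.65 and 8.36 in HFD mice 8, 11 and 14 and 8.09, 8.03 and 8.19 in HFD + LY mice 16, 18 and 20, a difference of -0.39 ± 0.11 (SE, adjusted p = 0.908), with mouse 11 the highest of the 6. *Cdk1*, *Cks2* and *Ccna2* were the other 3, and *Plk1*, *Cdc25c* and *Melk* did not pass (p from 0.0813 to 0.749).

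Of the 6 genes of the spindle checkpoint and the anaphase ubiquitin ligase, 3 were lower. *Ube2c*, the ubiquitin-conjugating enzyme of the anaphase-promoting complex, measured 8.80, 8.37 and 8.85 in HFD mice 8, 11 and 14 and 7.97, 8.07 and 8.33 in HFD + LY mice 16, 18 and 20, a difference of -0.55 ± 0.16 (SE, adjusted p = 0.908). *Bub1*, a checkpoint kinase, measured 6.25, 5.95 and 5.80 in HFD mice 8, 11 and 14 and 5.60, 5.68 and 5.64 in HFD + LY mice 16, 18 and 20, a difference of -0.36 ± 0.13 (SE, adjusted p = 0.95). *Cdc20*, the activator of that complex, measured 8.75, 8.05 and 8.35 in HFD mice 8, 11 and 14 and 8.03, 7.90 and 7.73 in HFD + LY mice 16, 18 and 20, a difference of -0.50 ± 0.18 (SE, adjusted p = 0.951), with HFD mouse 11 only just above the highest treated mouse. The groups did not overlap in these 3 genes, and the checkpoint genes *Mad2l1* (-0.46), *Bub1b* (-0.19) and *Ttk* (-0.12) did not pass p under 0.05.

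All 8 measured genes of the centromere and kinetochore were lower at p under 0.05, with differences from -1.08 to -0.34 and p from 0.00511 to 0.0412. *Ndc80*, *Nuf2* and *Spc25* code for subunits of the complex that grips the microtubule. *Ndc80* measured 8.22, 7.50 and 7.89 in HFD mice 8, 11 and 14 and 6.88, 7.35 and 7.13 in HFD + LY mice 16, 18 and 20, a difference of -0.75 ± 0.20 (SE, adjusted p = 0.908). *Spc25* measured 8.46, 7.43 and 7.90 in HFD mice 8, 11 and 14 and 6.82, 6.41 and 7.34 in HFD + LY mice 16, 18 and 20, a difference of -1.08 ± 0.30 (SE, adjusted p = 0.908), the treated mouse 20 lying only just below HFD mouse 11. *Cenpa*, the histone H3 variant that marks centromeres, measured 9.55, 9.12 and 9.36 in HFD mice 8, 11 and 14 and 8.90, 8.71 and 8.96 in HFD + LY mice 16, 18 and 20, a difference of -0.48 ± 0.13 (SE, adjusted p = 0.908). The groups were apart in 6 of the 8 genes, and overlapped in *Aurkb* and *Birc5*, both subunits of the chromosomal passenger complex, through treated mouse 20.

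Among 6 spindle genes, *Stmn1*, *Nusap1* and *Hmmr* were lower. *Stmn1*, which destabilises microtubules and is also expressed outside mitosis, measured 10.70, 9.84 and 10.37 in HFD mice 8, 11 and 14 and 8.97, 9.26 and 9.51 in HFD + LY mice 16, 18 and 20, a difference of -1.05 ± 0.23 (SE, adjusted p = 0.863). *Nusap1*, a microtubule bundling protein of the spindle, measured 8.17, 7.65 and 8.03 in HFD mice 8, 11 and 14 and 7.37, 7.46 and 7.45 in HFD + LY mice 16, 18 and 20, a difference of -0.52 ± 0.14 (SE, adjusted p = 0.908). *Hmmr* measured 6.90, 6.72 and 6.74 in HFD mice 8, 11 and 14 and 6.65, 6.53 and 6.44 in HFD + LY mice 16, 18 and 20, a difference of -0.24 ± 0.10 (SE, adjusted p = 0.974). In these 3 the groups were apart, whereas *Kif2c*, a kinesin that shortens microtubules, was the only G2 and mitosis gene of the 37 with a positive difference in SAT, 0.06 ± 0.18 (SE, adjusted p = 0.995).

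Of 6 cytokinesis genes, *Kif23*, *Racgap1* and *Kif20a* were lower. *Kif23* and *Racgap1* form centralspindlin, which sets the site of cleavage. *Kif23* measured 7.80, 7.03 and 7.56 in HFD mice 8, 11 and 14 and 6.95, 6.82 and 6.97 in HFD + LY mice 16, 18 and 20, a difference of -0.54 ± 0.19 (SE, adjusted p = 0.95). *Racgap1* measured 8.90, 7.57 and 8.15 in HFD mice 8, 11 and 14 and 7.48, 7.57 and 7.35 in HFD + LY mice 16, 18 and 20, a difference of -0.74 ± 0.29 (SE, adjusted p = 0.963), where mouse 8 alone exceeded the rest by a wide margin and mouse 11 equalled the highest treated mouse to 2 decimals. *Kif20a*, a kinesin of the central spindle, measured 7.47, 6.83 and 7.37 in HFD mice 8, 11 and 14 and 6.73, 6.96 and 6.65 in HFD + LY mice 16, 18 and 20, a difference of -0.44 ± 0.18 (SE, adjusted p = 0.963), and its groups overlapped.

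The 2 genes of mitotic chromosomes were both lower. *Mki67*, which codes for the proliferation antigen Ki-67, measured 9.73, 8.21 and 9.12 in HFD mice 8, 11 and 14 and 7.87, 7.95 and 8.07 in HFD + LY mice 16, 18 and 20, a difference of -1.06 ± 0.33 (SE, adjusted p = 0.949), about 0.481 times the HFD level, with mouse 8 highest and mouse 11 nearest to the treated mice. *Top2a*, the topoisomerase that untangles sister chromatids, measured 8.41, 7.95 and 8.37 in HFD mice 8, 11 and 14 and 7.48, 7.72 and 8.06 in HFD + LY mice 16, 18 and 20, a difference of -0.49 ± 0.18 (SE, adjusted p = 0.951), and treated mouse 20 lay above HFD mouse 11.

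**Figure D2:**
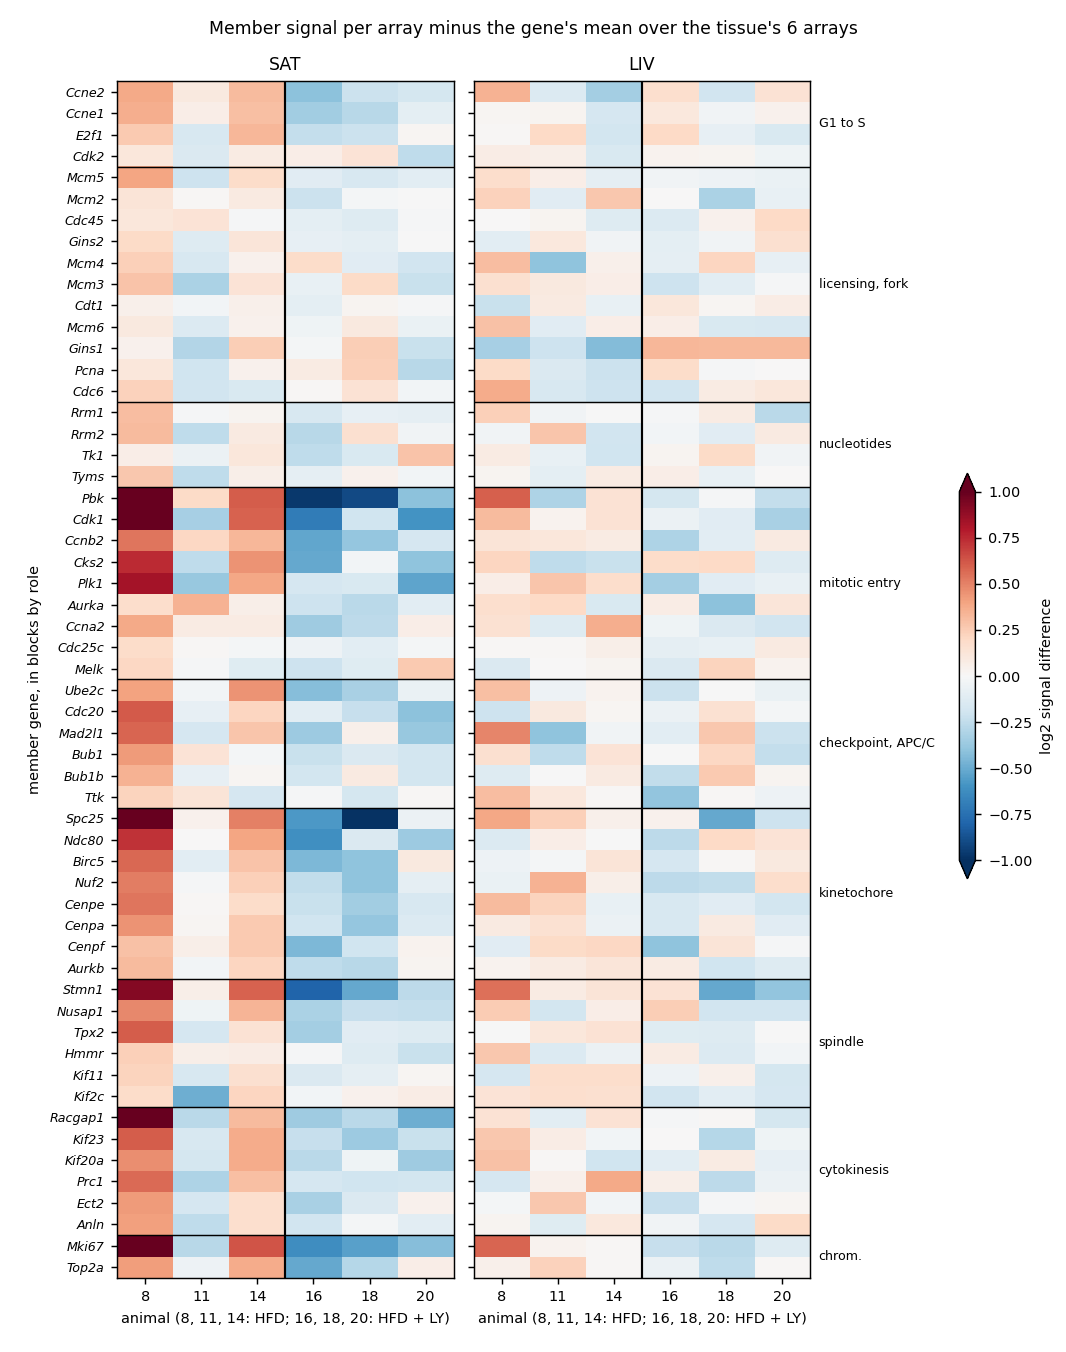
Log2 signal of each member (rows, in blocks by role) in each array (columns, by animal, HFD left of the line and HFD + LY right of it) minus the gene's mean over the 6 arrays of that tissue, for SAT and LIV. Colours run from -1 (blue) to 1 (red). In SAT, mouse 8 is above the mean in all 56 members and mouse 14 in 50, and mouse 11 is above it in 18.

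Array by array, HFD mice 8 and 14 stood highest in SAT and HFD mouse 11 lay nearer to the treated mice. Mouse 8 was above the mean of the 6 arrays in all 56 members and the highest array in 46, and mouse 14 was above the mean in 50. Mouse 11 was above it in only 18. On the other side, treated mice 16, 18 and 20 were below the mean in 52, 44 and 44 members. For the 37 G2 and mitosis genes the median deviation from the mean was 0.48, -0.04 and 0.26 in HFD mice 8, 11 and 14 and -0.27, -0.20 and -0.16 in HFD + LY mice 16, 18 and 20. Mouse 11 was thus the lowest of the HFD mice and still above each treated mouse in this median, and it exceeded all 3 treated mice in 21 of the 37 genes, compared with 36 for mouse 8 and 34 for mouse 14. For the 19 S phase genes the same counts were 5, 15 and 9. None of these counts per array was taken over all probe sets, so they describe the members alone. The median deviation of all probe sets stayed between -0.02 and 0.01 on the SAT arrays.

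**Figure D3:**
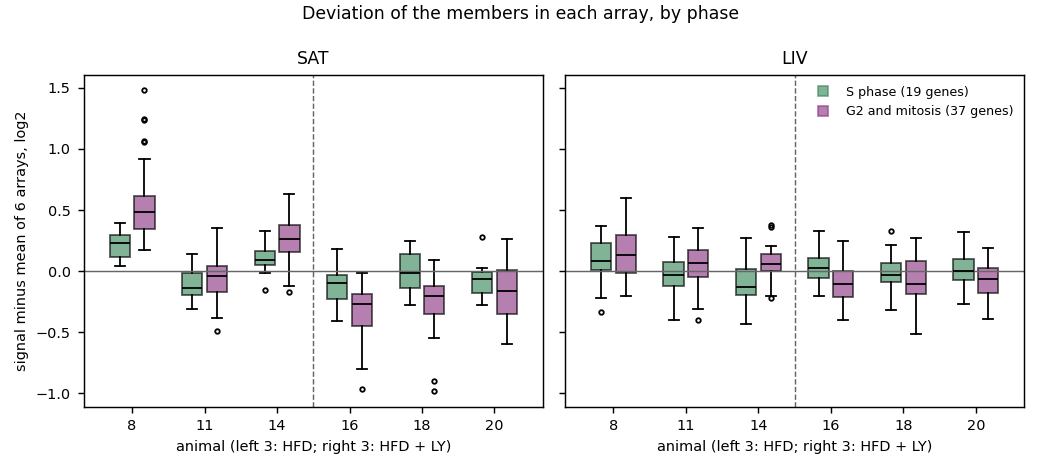
Deviation of the members from their mean over the 6 arrays of the tissue (log2 signal, vertical axis) by animal (horizontal axis), as boxes for the 19 S phase and the 37 G2 and mitosis genes (line, median; box, quartiles; whiskers, 1.5 times the interquartile range; circles, genes beyond). In SAT the G2 and mitosis medians are 0.48 and 0.26 in mice 8 and 14 and -0.04 in mouse 11, and the LIV boxes lie closer to 0.

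The marker genes of some other cells, but not of all, moved with part of this pattern. The mean log2 signal of 18 macrophage genes in SAT was 9.50 and 9.59 in HFD mice 8 and 14, 9.13 in HFD mouse 11 and 9.12, 9.19 and 9.17 in HFD + LY mice 16, 18 and 20, so mouse 11 stood with the treated mice. Of these 18 genes 3 were lower at p under 0.05 in SAT and 0 were higher. All probe sets gave 3.19% lower and 1.86% higher, which are the shares for the SAT lists below too. The 3 were *Itgad* (-2.31), *Itgam* (-0.56) and *Lyz2* (-0.41), and the defining markers *Csf1r* (-0.02) and *Adgre1* (-0.20) did not pass. The median difference of the 18 was only -0.09 and 5 were positive, so *Itgad* weighs heavily in the mean. In a whole tissue fewer cells of a type and less RNA per cell cannot be told apart. At p under 0.05, 2 of 12 genes of adipocyte progenitors and fibroblasts were lower in SAT and 0 were higher. The 2 were *Col3a1* (-0.57) and *Lum* (-0.65), both of the extracellular matrix, while 7 of the 12 differences were positive (median 0.02). The mean of these 12 was 10.45, 10.26 and 10.53 in HFD mice 8, 11 and 14 and 10.35, 10.29 and 10.37 in HFD + LY mice 16, 18 and 20, again with mice 8 and 14 highest and mouse 11 lowest. Of 9 adipocyte genes *Adipoq* and *Retn* (both -0.22) were lower, and the mean of the 9 was 13.43, 13.26 and 13.46 in the HFD mice and 13.26, 13.29 and 13.31 in the treated mice, in the same order of HFD mice. Of 9 neutrophil genes *S100a8* (-1.06) was lower, and of 12 hepatocyte genes *Cyp2e1* (-0.69), *Serpina1a* (-0.48) and *Apoa1* (-0.29), and 0 were higher in either list. Lists for T and NK cells (12 genes), B cells (11) and endothelial cells (9) held 0 genes lower and 0 higher in SAT. The endothelial mean was 10.60, 9.98 and 10.17 in HFD mice 8, 11 and 14. In HFD + LY mice 16, 18 and 20 it was 10.38, 10.41 and 10.05, so mice 16 and 18 exceeded mice 11 and 14. The T and NK cell mean was 7.37, 7.25 and 7.18 in the HFD mice and 7.33, 7.35 and 7.28 in the treated mice. Differences were positive in 8 of these 12 genes and in 7 of 8 mast cell genes. In the remaining lists the Schwann cell gene *S100b* was lower (-0.73), and *Siglech* of dendritic cells (0.57) and the erythroid gene *Alas2* (0.28) were higher. The part of these cell types in the member differences was not tested. The mean of 21 skeletal muscle genes was 12.67 in HFD mouse 11 and 12.40 in HFD + LY mouse 20, against 9.16 in mouse 14 and 7.91 to 8.06 in mice 8, 16 and 18 and 7.67 to 7.81 in the livers. Muscle genes were thus far higher in 1 sample of each group, and HFD mouse 14 also stood above the other 3. Without mice 11 and 20, which leaves 2 mice a group, 38 of the 56 members were lower in SAT at p under 0.05 (10.3% of all probe sets in the same fit), the median was -0.53, and 22 members passed the adjusted p, 19 of G2 and mitosis and 3 of S phase. The labelled tissues fitted their own markers: the mean of 9 adipocyte genes was 13.3 to 13.5 in SAT and 8.4 to 8.7 in LIV, and that of 12 hepatocyte genes 13.4 in LIV and 8.1 to 8.4 in SAT.

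**Figure D4:**
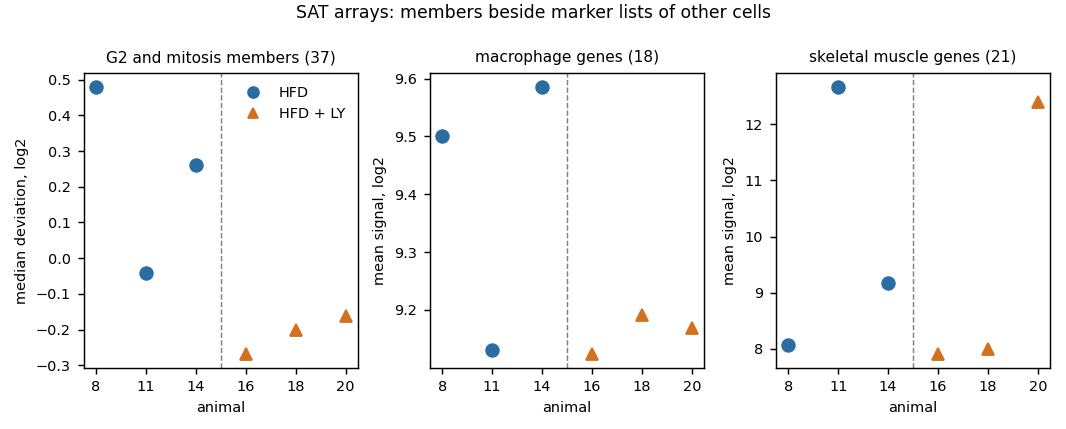
For each SAT array (horizontal axis, by animal), the median deviation of the 37 G2 and mitosis genes and the mean log2 signal of 18 macrophage and 21 skeletal muscle genes, with circles for HFD and triangles for HFD + LY mice. Mouse 11 lies with the treated mice in the macrophage panel at 9.13 and is the highest in the muscle panel at 12.67.

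In LIV the members differed less. Many were dim there: 18 of the 56 were left when probe sets below the tissue's median mean signal were dropped, compared with 22 in SAT. The part of low signal in the smaller differences was not tested. Of the 56, 8 were lower at p under 0.05 and 1 was higher, against 3.94% and 2.96% of all probe sets. The difference was negative in 40 (71.4%) with a median of -0.11, against 51.9% and -0.007 over all probe sets. The groups were apart downwards in 9 members (6.89% of all probe sets) and upwards in 1 (5.61%). Of the lower genes 7 were of G2 and mitosis (*Cdk1*, *Plk1*, *Cenpe*, *Spc25*, *Kif2c*, *Stmn1* and *Mki67*; median of the 37 genes -0.16) and 1 of S phase (*Mcm3*; median of the 19 genes 0.01). The count of lower genes was 2 without HFD mouse 8, 5 without HFD + LY mouse 18, and 1 when the spread was estimated from all 12 arrays. The smallest adjusted p was 0.292. The mean of the 18 macrophage genes was 8.33 to 8.51 in the HFD livers and 8.10 to 8.25 in the HFD + LY livers, with 6 of the 18 lower and 0 higher, and of the 9 adipocyte genes *Plin4* (-0.74), *Cidec* (-0.50), *Fabp4* (-0.42) and *Lep* (-0.37) were lower in LIV. The part of either in the member differences was not tested.

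*Gins1*, a subunit of the GINS complex that works with the replicative helicase, was the member that was higher in LIV and was so in every alternative that tested it. It measured 7.89, 8.02 and 7.79 in HFD mice 8, 11 and 14 and 8.56, 8.55 and 8.55 in HFD + LY mice 16, 18 and 20, a difference of 0.65 ± 0.09 (SE, adjusted p = 0.292), or 1.57 times the HFD level, and the 3 treated mice lay close together above all HFD mice. *Gins2*, of the same complex, differed by 0.02 ± 0.11 (SE, adjusted p = 0.969). *Kif2c* measured 6.58, 6.62 and 6.61 in HFD mice 8, 11 and 14 and 6.25, 6.34 and 6.28 in HFD + LY mice 16, 18 and 20, a difference of -0.31 ± 0.08 (SE, adjusted p = 0.685). *Plk1*, a kinase that acts throughout mitosis, measured 7.03, 7.24 and 7.14 in HFD mice 8, 11 and 14 and 6.62, 6.85 and 6.89 in HFD + LY mice 16, 18 and 20, a difference of -0.35 ± 0.11 (SE, adjusted p = 0.687). Both genes were apart between the groups in LIV and overlapped in SAT. *Spc25* measured 7.98, 7.83 and 7.64 in HFD mice 8, 11 and 14 and 7.64, 7.08 and 7.38 in HFD + LY mice 16, 18 and 20 (-0.45 ± 0.15 (SE, adjusted p = 0.687)). *Cdk1*, the kinase that drives mitosis, measured 6.91, 6.63 and 6.74 in HFD mice 8, 11 and 14 and 6.54, 6.48 and 6.27 in HFD + LY mice 16, 18 and 20 (-0.33 ± 0.11 (SE, adjusted p = 0.687)), and *Mki67* 7.44, 6.89 and 6.87 in HFD mice 8, 11 and 14 and 6.63, 6.59 and 6.73 in HFD + LY mice 16, 18 and 20 (-0.42 ± 0.15 (SE, adjusted p = 0.707)). These 3 were lower in both tissues at p under 0.05, as were *Cenpe* and *Stmn1*, which makes 5 of the 27 SAT genes and 5 of the 8 LIV genes, from the same mice.

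The tissue by treatment interaction asked whether a member's difference was unlike in SAT and LIV. The SAT difference was the more negative in 50 of 56 members, against 49.8% of all probe sets. It was so at p under 0.05 in 8, with 0 the other way, against 3.44% and 2.77% of all probe sets. The smallest adjusted p was 0.572, and the count was 5 without mouse 8, 5 without mouse 14, 23 without mouse 11 and 23 without mice 11 and 20, where the share of all probe sets was 2.71%, 1.82%, 4.98% and 6.21%. *Ccne1* differed by -0.48 in SAT and 0.08 in LIV (interaction -0.56 ± 0.15 SE, adjusted p = 0.572), with LIV values of 8.87, 8.87 and 8.68 in HFD mice 8, 11 and 14 and 8.95, 8.81 and 8.89 in HFD + LY mice 16, 18 and 20. *Gins1* differed by 0.01 in SAT and 0.65 in LIV (interaction -0.65 ± 0.20 SE, adjusted p = 0.743), its SAT values being 7.87, 7.53 and 8.07 in HFD mice 8, 11 and 14 and 7.81, 8.07 and 7.60 in HFD + LY mice 16, 18 and 20, with groups that overlapped in SAT only. *Ndc80* differed by -0.75 and 0.05 (interaction -0.79 ± 0.26 SE, adjusted p = 0.754) and *Pbk* by -1.52 and -0.28 (interaction -1.24 ± 0.42 SE, adjusted p = 0.756). With the mouse as a replicate block the count was 12 (3.67% of all probe sets), and *Cdc20* no longer passed p under 0.05.

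Most members had a higher signal in SAT than in LIV. Over all 12 arrays 32 of 56 members were higher in SAT and 6 higher in LIV at an adjusted p under 0.05, against 29.2% and 30.7% of all probe sets, with a median SAT minus LIV of 0.33. *Cdk1* measured 7.54 to 9.48 in the 6 SAT arrays, with 9.48, 7.90 and 8.82 in HFD mice 8, 11 and 14 and 7.54, 8.04 and 7.64 in HFD + LY mice 16, 18 and 20, and 6.27 to 6.91 in LIV, a difference of 1.64 ± 0.21 (SE, adjusted p = 1.72e-05). *Mki67* spanned 7.87 to 9.73 in SAT and 6.59 to 7.44 in LIV, a difference of 1.63 ± 0.20 (SE, adjusted p = 1.45e-05). The lowest SAT array lay above the highest LIV array for both genes. *Racgap1* spanned 7.35 to 8.90 in SAT and 6.36 to 6.68 in LIV (1.30 ± 0.17 (SE, adjusted p = 2.46e-05)), and *Mcm6* 8.74 to 8.97 and 7.66 to 8.11 (1.06 ± 0.08 (SE, adjusted p = 1.71e-07)). All 5 measured MCM genes were higher in SAT, by 0.37 to 1.06, although none differed with treatment there at p under 0.05.

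The members higher in LIV were *Cks2*, *Tk1*, *Rrm2*, *Tyms*, *Gins1* and *Ttk*, 3 of which belong to nucleotide supply. *Cks2*, a small subunit that binds CDK1, spanned 9.49 to 9.96 in LIV and 7.44 to 8.70 in SAT, a SAT minus LIV difference of -1.79 ± 0.16 (SE, adjusted p = 6.98e-07), the opposite direction to *Cdk1* itself. *Tk1* spanned 8.76 to 9.15 in LIV and 7.62 to 8.16 in SAT, a difference of -1.08 ± 0.10 (SE, adjusted p = 5.76e-07). The ranges did not overlap in either gene.

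**Figure D5:**
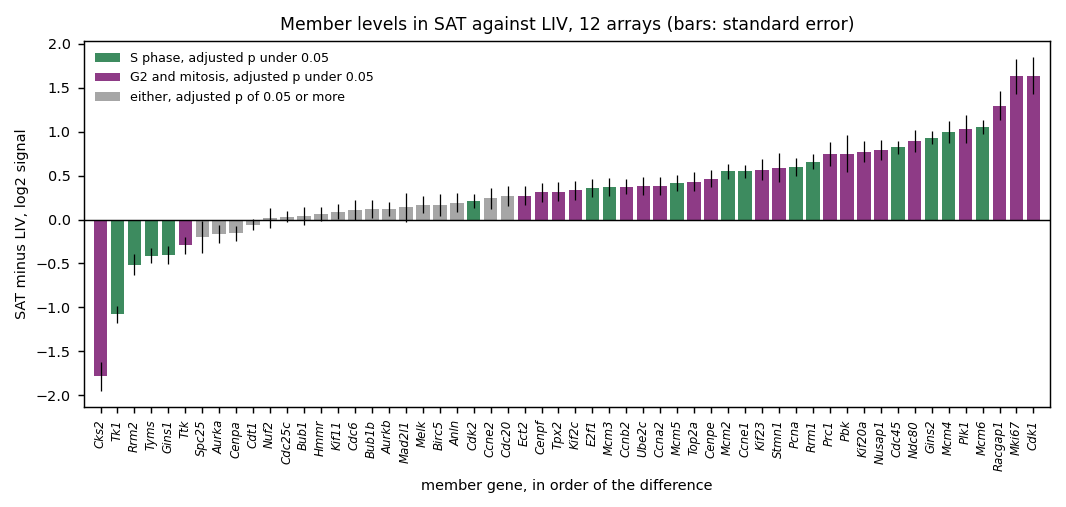
SAT minus LIV log2 signal of each member over the 12 arrays (vertical axis, bars with the standard error; members in order of the difference), green for S phase and purple for G2 and mitosis where the adjusted p is under 0.05 and grey otherwise. The ends are *Cks2* at -1.79 and *Cdk1* at 1.64.

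Cell cycle genes outside the 56 were read from further lists. Of 62 other G2 and mitosis genes measured, 17 were lower in SAT at p under 0.05 (27.4%) and 0 higher (median -0.24), and of 45 other replication and S phase genes 7 were lower (15.6%) and 0 higher (median -0.09), against 3.19% of all probe sets lower and 1.86% higher. *Ncapg2*, a condensin II subunit, differed by -0.50 ± 0.12 (SE, adjusted p = 0.908), *Zwilch*, of the kinetochore RZZ complex, by -0.51 ± 0.13 (SE, adjusted p = 0.908), *Troap* by -0.45 ± 0.12 (SE, adjusted p = 0.908) and *Depdc1a* by -0.52 ± 0.15 (SE, adjusted p = 0.908). *Hells*, a chromatin remodeller, differed by -0.55 ± 0.12 (SE, adjusted p = 0.848), *Asf1b*, a histone chaperone, by -0.56 ± 0.13 (SE, adjusted p = 0.908), *Dtl*, of the ubiquitin ligase that degrades Cdt1, by -0.49 ± 0.15 (SE, adjusted p = 0.949), and *Cdc7*, the kinase that fires origins, by -0.32 ± 0.11 (SE, adjusted p = 0.95). The mitotic list had the lower median and the larger share of lower genes, as in the members. Both lists were chosen with earlier results of these data known and were read on the same arrays, so they are not an independent repeat. In LIV, *Cenpi* (-0.26), a centromere protein gene, was the 1 lower gene of the 62 in the mitotic list (1.61%), and the S phase list had 0 of 45. The share lower in LIV was 3.94% of all probe sets and 18.9% of the 37 G2 and mitosis members.

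Inhibitors of the cycle and G1 genes outside the members were read against the shares of all probe sets at p under 0.05. Those were 3.19% lower and 1.86% higher in SAT, and 3.94% lower and 2.96% higher in LIV. Of 26 cell cycle inhibitors and quiescence genes, 0 were lower and 1 was higher in SAT (3.85%). This was *Lin52* of the MuvB core, at 9.49, 9.72 and 9.63 in HFD mice 8, 11 and 14 and 9.89, 10.02 and 9.83 in HFD + LY mice 16, 18 and 20, a difference of 0.30 ± 0.10 (SE, adjusted p = 0.95). In LIV 2 of the 26 were lower (7.69%), *Ccng1* (-0.41) and *Rbl1* (-0.32), and 1 was higher (3.85%), *Gadd45a* (0.27). Of 13 G1 genes outside the members, *Ccnh* (-0.27) and *Ccnd2* (-0.46) were lower in SAT (15.4%) and *Myc* was higher (7.69%). *Myc* measured 8.06, 8.22 and 8.29 in HFD mice 8, 11 and 14 and 9.03, 8.97 and 8.29 in HFD + LY mice 16, 18 and 20, a difference of 0.58 ± 0.19 (SE, adjusted p = 0.95). *Myc*, a transcription factor that promotes growth and S phase entry, lay above every HFD mouse in the treated fat, although mouse 20 and HFD mouse 14 were equal to 2 decimals, and its liver values ranged from 6.91 to 9.43. In LIV *Cdk6* (-0.44) and *Ccnd3* (-0.30), a G1 kinase and a D-type cyclin that binds it, were lower (15.4% of the 13), and 0 were higher.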

How the data were processed

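The members and gene lists were chosen with earlier results of these data known. RNA from 12 tissue samples was hybridised to Affymetrix mouse arrays with the WT PLUS kit. The deposited values are log2 signals, made by the authors with RMA (version not given in the sources used here), and array medians ran from 8.16 to 8.28. Of 28846 probe sets, 6640 controls were left out. Of the 22206 tested, 19572 had 1 gene symbol in the platform annotation and 2634 none. Groups were compared with limma 3.58.1 (lmFit, eBayes; R 4.3.3), within each tissue, and on all 12 arrays for the interaction and the tissue difference, and p-values were adjusted by Benjamini-Hochberg over the whole table. The number of arrays limits the precision.

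Genes with values per array were, in each role, the 3 with the smallest p in SAT, the most positive SAT difference, and those leading in LIV, the interaction and the tissue contrast. Of each other list, up to 4 genes with the smallest p in SAT and 2 in LIV were named, and every gene of a count of 5 or fewer. SAT and LIV arrays with the same number came from the same mouse, although their deviations correlated weakly (-0.07 to 0.21 over all probe sets). Alternatives were other normalizations, priors, tests, filters, array weights and leaving out mice. The limma steps were tested on simulated data. Promoters came from RefSeq GRCm38.p6.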

Additional observations from a re-analysis of the deposited data

Results flagged for a closer look

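For 8 members the HFD + LY minus HFD difference was unlike in SAT and LIV at an unadjusted p under 0.05 of limma's interaction (adjusted p from 0.572 to 0.791), so none passes the correction. SAT minus LIV, this difference of differences was -0.56 for *Ccne1*, -0.61 for *Ccne2*, -0.65 for *Gins1*, -0.50 for *Ccnb2*, -0.80 for *Cks2*, -1.24 for *Pbk*, -0.55 for *Cdc20* and -0.79 for *Ndc80*. The liver value carried it for *Gins1* and the fat value for the others. *Ccne1* and *Gins1* kept p under 0.05 without each mouse in turn. *Ccne2* lost it without mice 14, 16 or 20, *Ccnb2* and *Ndc80* without mouse 8, *Cks2* without mice 14 or 16, *Pbk* without mouse 18, and *Cdc20* without mice 8, 14, 18 or 20.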

How the results depend on the processing

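Members lower in SAT numbered 27 of 56, and 14 (without HFD mouse 8) to 36 (without HFD mouse 11) when each mouse was left out, G2 and mitosis genes 12 to 32 and S phase genes 2 to 4. The SAT median ran from -0.44 to -0.23, that of S phase from -0.19 to -0.04 and that of G2 and mitosis from -0.62 to -0.34. By the methods' t-test 13 were lower (G2 and mitosis 11), against 2.86% of all probe sets. Without dim probe sets, 11 of the 22 left were lower (G2 and mitosis 9 of 10), against 3.75%. With array weights 40 were lower, S phase genes 8, against 12.1% of all probe sets, and without mice 11 and 20 38, S phase genes 7, against 10.3%, where the share was 3.19% for the 27. In those fits 16 and 22 members, S phase genes 2 and 3, passed the adjusted p. In LIV 8 were lower. Leaving out each mouse gave 2 to 9 (G2 and mitosis 2 to 8, S phase 0 to 1; 1 to 2 higher), with medians of -0.12 to -0.058, -0.20 to -0.13 for G2 and mitosis and -0.06 to 0.05 for S phase. A fit of all 12 arrays gave 1 (G2 and mitosis 1, S phase 0) and the t-test 5 (G2 and mitosis 4), against 3.51% and 3.76% of all probe sets. When dim probe sets were dropped, 2 of the 18 left were lower (G2 and mitosis 1 of 8), against 4.19% of all probe sets, with a median of -0.018. The S phase count in LIV was 0 with an intensity trend and after quantile or median normalization. The interaction count of 8 (3.44% of all probe sets) became 24 with array weights (8.23%), of which *Ccne1* passed the adjusted p, 23 without mice 11 and 20 (6.21%), and 5 to 23 without each mouse (1.82% to 4.98%). The tissue contrast gave 26 to 34 members higher in SAT and 5 to 6 lower without each mouse. It gave 35 and 6 with array weights (31.5% and 36.5% of all probe sets) and 28 and 7 after median normalization (25.8% and 39.8%). The shares were 29.2% and 30.7% for the 32 and 6 members given above. With the mouse as a replicate block, the paired interaction count was 12 (3.67% of all probe sets) and the tissue counts 31 and 6 (29.3% and 30.5%). The causes were not tested. Single genes were followed only where they first passed p under 0.05, 27 in SAT, 9 in LIV and 8 in the interaction. Over these and their alternatives, 522 fits stayed under 0.05, 120 lost it and 0 changed sign. Members that passed only in an alternative are not in these counts.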
